A study of Mus musculus with 5 samples.

Results

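Type B intercalated cells are a minority epithelial cell of the connecting tubule and collecting duct that secretes bicarbonate into the urine. Here they were the barcodes that the authors' deposited annotation of healthy mouse kidney labels IC-B, and they numbered 254 of 11395. Of these, 16 came from a Drop-seq library of enzymatically dissociated whole cells, 75 from an sNucDrop-seq library of nuclei, 83 from a DroNc-seq library of nuclei and 80 from a 10x Chromium library of nuclei. The study set these droplet methods side by side in adult kidney, and the labels name healthy tissue and, for the dissociated cells, a C57BL/6 mouse. No genotype, age, sex or treatment of the healthy mice is given in the labels, and a library of obstructed kidney was not analysed here. Each platform is 1 library, so platform, tissue preparation and animal cannot be told apart.

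In an intercalated cell carbonic anhydrase hydrates carbon dioxide, and the resulting proton and bicarbonate leave through opposite faces of the cell. Type A cells pump protons into the urine with a vacuolar proton pump and return bicarbonate to the blood through the exchanger Slc4a1. Type B cells place the chloride-bicarbonate exchanger pendrin, encoded by Slc26a4, on the urinary side and the pump on the blood side, and they are known for salt reabsorption and for the answer to an alkali load. The forkhead factor Foxi1 is needed for both kinds. Their neighbours in the same tubule are the principal cells, which take up sodium and water, and the connecting tubule cells, which take up calcium.

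The promoter of Slc26a4, the gene that defines the type, is shown with that of Lsamp, which came next in the ranking of genes higher than in type A cells. The windows run from 250 bases before to 50 bases after the annotated start (RefSeq, GRCm38.p6), 5′ to 3′ on the strand of the gene. The Slc26a4 window is chr12:31559935-31560234 on the minus strand and the Lsamp window is chr16:39984114-39984413 on the plus strand.
Slc26a4: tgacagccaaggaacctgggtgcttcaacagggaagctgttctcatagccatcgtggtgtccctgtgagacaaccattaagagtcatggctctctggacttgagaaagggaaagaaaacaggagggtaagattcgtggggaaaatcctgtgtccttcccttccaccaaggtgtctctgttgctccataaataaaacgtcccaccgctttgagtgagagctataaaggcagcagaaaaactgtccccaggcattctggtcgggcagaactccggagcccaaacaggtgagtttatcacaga
Lsamp: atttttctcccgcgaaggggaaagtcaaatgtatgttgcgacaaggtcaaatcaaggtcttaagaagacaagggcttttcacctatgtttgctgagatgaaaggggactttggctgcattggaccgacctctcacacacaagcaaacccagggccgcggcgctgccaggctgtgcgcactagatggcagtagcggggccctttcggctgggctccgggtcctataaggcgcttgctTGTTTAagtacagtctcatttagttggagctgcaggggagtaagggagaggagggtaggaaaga
Capitals mark the forkhead core TGTTTA, which was searched on both strands as TGTTTA and TAAACA, 2 spellings that share no overlap with another motif searched. The Lsamp window holds it in 1 place and the Slc26a4 window in none of its 300 bases. Windows of genes other than Slc26a4 were kept for display only where they held the core, so its presence in the Lsamp window was set by that choice. Among the genes higher in type B nuclei than in each neighbour (28 genes, described below), 21 matched a window by symbol, and 5 of their 29 windows (17.2%) held the core, against 4416 of 32851 windows of the whole table (13.4%). The match is a description of letters and marks no binding site.

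Before any comparison, the label was set beside its markers. The labels were made by clustering the same genes, so high marker levels describe the label and are no independent support for it. Slc26a4, the anion exchanger Slc4a9 and the alkali-sensing receptor Insrr each had their highest level of all 13 labels in type B barcodes, in each of the 4 libraries. For Insrr in Drop-seq this rested on only 2 UMIs in 1 of 16 barcodes, too few to place the gene there. Levels are counts of unique molecular identifiers (UMIs) of a gene per 1000000 UMIs (CPM), summed over the barcodes of a label within a library, and they are not compared between genes. In the nucleus libraries 72 of 75, 80 of 83 and 80 of 80 type B barcodes had an Slc26a4 UMI (sNucDrop-seq, DroNc-seq and 10x, the order kept throughout). After thinning every barcode to 500 UMIs the shares were 93.3%, 86.7% and 89.6%, against 3.24%, 4.36% and 2.31% of proximal tubule barcodes, a cell type that should lack the gene. Median depths of the thinned barcodes before thinning were 1418, 1894 and 1322 UMIs in type B and 1179, 1544 and 1598 in proximal tubule.

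**Figure D1:**
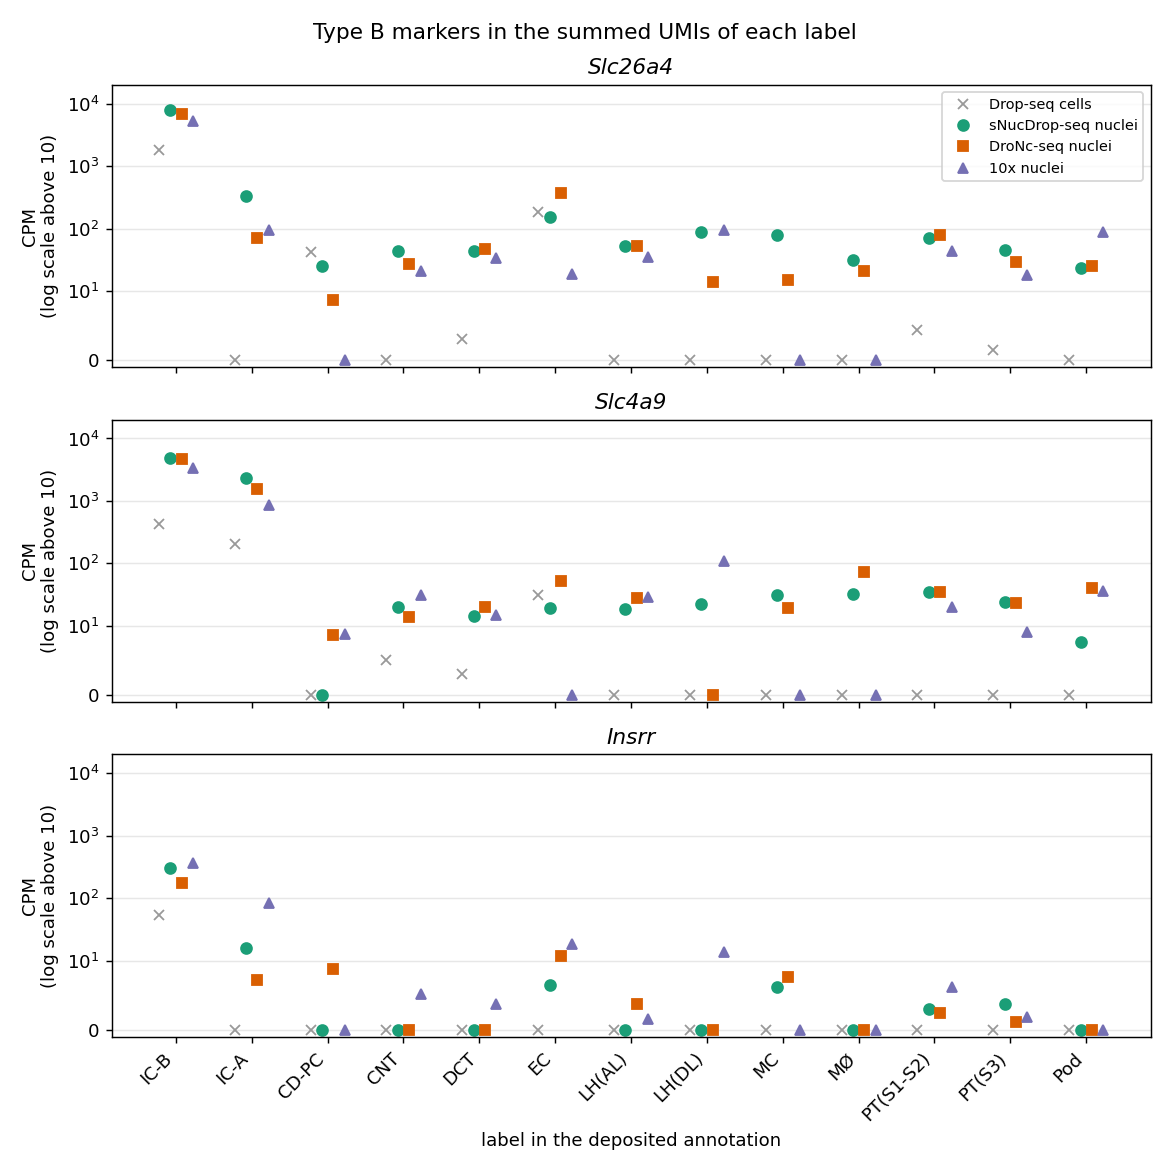
Levels of Slc26a4, Slc4a9 and Insrr (CPM, log scale above 10) in the summed barcodes of each of the 13 labels, with 1 point per library. All 3 genes are highest in IC-B in every library, and Slc4a9 alone is also well above the remaining labels in IC-A in each. The Drop-seq point of Insrr in IC-B rests on 2 UMIs.

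The Drop-seq members met the label less well. Only 10 of 16 had an Slc26a4 UMI, and 1 barcode held 33 of the 68 Slc26a4 UMIs. In 5 of the 16, none of Slc26a4, Slc4a9, Foxi1 and the pump subunit Atp6v1g3 had a UMI. A single other barcode held 21 Calb1, 132 S100g and 109 Klk1 UMIs, genes of connecting tubule cells, beside 8 of Slc26a4 and 17 of Atp6v1g3. Thinned to 500 UMIs, 25% of the Drop-seq members had Slc26a4 (exact 95% interval 7.27% to 52.4%). Counts of genes are therefore given over the 3 nucleus libraries, with Drop-seq values beside them.

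**Figure D2:**
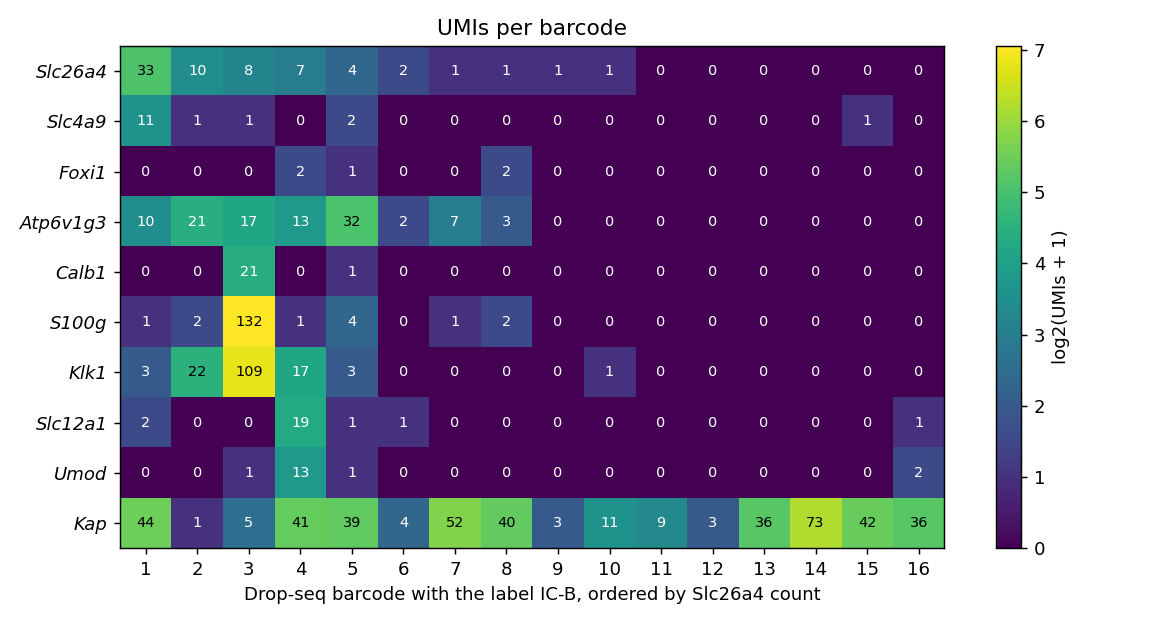
UMIs of 10 genes in each of the 16 Drop-seq barcodes with the label IC-B, ordered by Slc26a4, with colour as log2(UMIs + 1). Barcode 1 holds 33 Slc26a4 UMIs and barcode 3 most of the Calb1, S100g and Klk1. The barcodes on the right, without Slc26a4, hold Kap, a proximal tubule gene. Apart from 1 Slc4a9 UMI in 1 of them, they hold none of the intercalated genes.

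Type B barcodes made up 0.453% of the Drop-seq library (exact 95% interval 0.259% to 0.735%), 2.49% of sNucDrop-seq (1.96% to 3.11%), 2.997% of DroNc-seq and 3.84% of 10x (3.06% to 4.76%). Among barcodes outside the proximal tubule the shares were 3.14%, 6.30%, 7.13% and 5.80%. Type B barcodes were 44.4%, 65.2%, 58.0% and 50.3% of all intercalated barcodes in the same order, and the 4 intervals, which cover counting error only, overlapped. Drop-seq thus held fewer type B members per barcode than any nucleus library, and the gap was narrower once proximal tubule barcodes were left out of the denominator. The type B sums held 37688, 137068, 240768 and 117413 UMIs from Drop-seq to 10x, at a median of 1889, 1418, 1894 and 1294.5 UMIs per barcode. The number of members with more than 3 times the median UMIs, where doublets could fall, was 1, 3, 13 and 0. No library pair with comparable barcodes shared one that carried the type B label.

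Slc26a4 stood at 7872, 6849 and 5221 CPM in type B nuclei and at 335, 71.7 and 95.3 in type A nuclei. The type B sums lay far above the type A sums in every nucleus library, and the log2 ratio was 5.64 ± 1.02 (SD, n = 3 nucleus libraries). Drop-seq gave 1804 CPM in type B and none in the 20 type A cells. Type B barcodes carried 73.1% of all Slc26a4 UMIs of the Drop-seq library and 79.5%, 82.0% and 85.1% of those of the nucleus libraries. Within the label, a nucleus held a median of 13, 16 and 6 Slc26a4 UMIs, with 10th to 90th percentiles of 2.4 to 27.6, 1 to 41.4 and 2 to 14.1. At least 5 Slc26a4 UMIs were found in 184 of the 254 members and in 22 of the 11141 other barcodes. In type A, 2 nuclei of each library had an Slc26a4 UMI, and a single nucleus held 19 of 21, 9 of 10 and 7 of 8 of them. With the highest barcode of each label left out, the mean log2 ratio of Slc26a4 over type A was 8.79. Few type A UMIs were then left, because the nuclei that held most of them were taken out. The value of 8.79 is thus not a better estimate than 5.64.

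Slc4a9, a basolateral anion exchanger used as a type B marker, was not restricted to the label. It stood at 4932, 4623 and 3356 CPM in type B and at 2331, 1542 and 858 in type A nuclei, at 0, 8.72 and 8.76 in principal cells and at 19.9, 13.7 and 31.1 in connecting tubule. The order type B, type A, others held in every nucleus library, and the log2 ratio of type B over type A was 1.54 ± 0.44 (SD, n = 3). Thinned to 500 UMIs, Slc4a9 was found in 84.0%, 71.1% and 77.9% of type B nuclei, in 72.5%, 48.3% and 33.8% of type A nuclei, and in 1.81%, 2.43% and 0.154% of proximal tubule nuclei. The type A share was above the proximal tubule share in each library by more than their exact intervals. With the barcodes of more than 3 times the median UMIs left out, the mean log2 ratio was 1.41 and Slc4a9 was no longer 2-fold apart in every nucleus library.

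**Figure D3:**
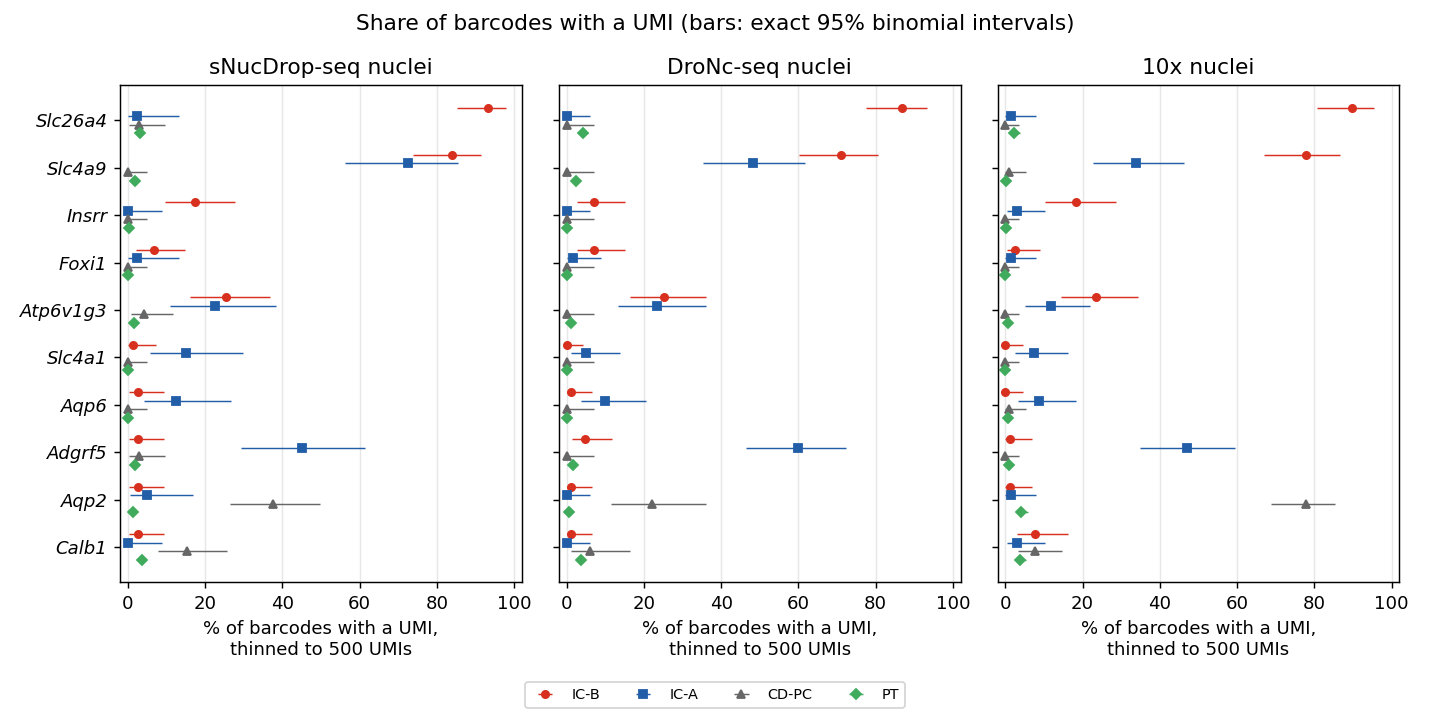
Share of barcodes with a UMI of 10 genes after thinning to 500 UMIs per barcode, in type B, type A, principal cell and proximal tubule (PT) barcodes of the 3 nucleus libraries, with exact 95% binomial intervals. Slc26a4 separates IC-B from every other label shown, Slc4a9 is shared with IC-A at a lower share, and Adgrf5 marks IC-A.

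The comparison with type A cells asks what separates the bicarbonate-secreting from the acid-secreting cell. A gene counted as measured where the 2 sums held at least 20 UMIs together, in at least 2 nucleus libraries, and as different where it was at least 2-fold apart in the same direction in every nucleus library that measured it. Because the labels were made by clustering the same genes, this is a description and carries no test. Of 2711 measured genes, 48 were higher in type B (1.77%) and 29 lower (1.07%), and the median log2 ratio of all measured genes was -0.02. The filter drops genes that are low in both labels, so a gene seen in only 1 of them passes only through the label where it is high. Sums at 0 were set to a floor of 3 UMIs, which makes their ratio a lower bound on the difference.

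Besides the 3 markers, the leading genes higher in type B were Lsamp, an adhesion protein of neurons, Nbea, a scaffold of vesicle traffic, Plxna4, a semaphorin receptor, Tmem163, a vesicular zinc transporter, Soga1, and Myo5a, an actin motor that carries vesicles. Lsamp was at 941, 619 and 7495 CPM in type B nuclei and at 63.9, 14.3 and 95.3 in type A nuclei. Its type B level was far higher in 10x than in the other nucleus libraries, and type B exceeded type A in each (log2 5.20 ± 1.22, SD, n = 3, and a mean of 5.86 without sNucDrop-seq). Nbea was at 1685, 2218 and 2572 CPM against 208, 194 and 143 (log2 3.57 ± 0.58). The groups did not overlap for Nbea, and its level in principal cells and connecting tubule, between 289 and 477, lay between the 2 intercalated types. Plxna4 rested on 46, 63 and 40 UMIs in type B against 1, 1 and 0 in type A (mean log2 4.28, and 2.97 without the highest barcode of each label). For the value of 2.97 no type A UMI of Plxna4 was left, and the floor of 3 UMIs by itself lowers that ratio. Tmem163 rested on 44, 82 and 110 against 2, 10 and 7.

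The gene leading in the other direction, lower in type B than in type A, was Adgrf5. Adgrf5, an adhesion receptor that restrains proton secretion in type A cells, was at 29.2, 112 and 85.2 CPM in type B and at 1150, 1915 and 1036 in type A nuclei (log2 -4.33 ± 0.87, SD, n = 3), and Drop-seq showed the same order with 26.5 against 867. Endothelial nuclei also held it, at 722, 869 and 259. Kit, a receptor tyrosine kinase, was at 58.4, 24.9 and 256 against 591, 344 and 1644 (log2 -3.27 ± 0.55). The anion channel Aqp6 rested on 7, 2 and 0 UMIs in type B against 24, 45 and 26. All 3 lay below type A in every nucleus library. Slc35f1, Rapgef4 (a cAMP-activated exchange factor), Defb1 (a defensin), Epb41l2, Trak1, Plcb4 and Sgpp2 completed the 10 leading genes in that direction.

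Several type A genes were too sparse for the count minimum in at least 2 nucleus libraries, and their raw UMIs are given. Slc4a1 had 2, 0 and 1 UMIs in type B against 14, 22 and 16 in type A nuclei. Dmrt2, a transcription factor, had 0 in every library in type B against 8, 16 and 15. The type A exchanger Slc26a7 had 0, 1 and 0 against 2, 26 and 12. At least 1 UMI of Slc4a1, Aqp6 or Dmrt2 was found in 6 of 75, 2 of 83 and 1 of 80 type B nuclei and in 26 of 40, 36 of 60 and 35 of 79 type A nuclei. Few type B nuclei thus carried any of those 3 genes, and the 6, 2 and 1 that did all also held Slc26a4. The more abundant Adgrf5 and Kit were found more often. Adgrf5 had a UMI in 3, 17 and 7 type B nuclei and in 29, 50 and 45 type A nuclei, and Kit in 6, 4 and 13 against 19, 30 and 51.

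A list of markers of other cells gave the following beside these results. The 8 proximal tubule markers summed to 7259, 4457 and 1635 CPM in type B nuclei, to 6801, 3795 and 2156 in type A nuclei and to 14416, 11505 and 14228 in proximal tubule nuclei, with Slc5a2 and Slc22a6 at 0 in type B of 10x. In Drop-seq type B cells the sum was 14779 against 40977 in proximal tubule cells. Magi2, a scaffold protein abundant in podocytes, was at 759, 802 and 588 CPM in type B and at 2714, 2898 and 691 in type A nuclei. The 5 connecting tubule markers summed to 2087, 2650 and 758 in type B nuclei against 21113, 28305 and 40432 in connecting tubule nuclei, with Trpv5 at 0 in 10x. In Drop-seq they summed to 8570 in type B cells, from 323 UMIs, and to 8385 in type A cells. A single type B barcode held 21 Calb1, 132 S100g and 109 Klk1 of those 323 UMIs. The type B list of 3 markers summed to 13103, 11646 and 8943 in type B nuclei and to 2682, 1621 and 1036 in type A nuclei. The 7 type A markers summed to 292, 249 and 562 against 2539, 3085 and 3514. Jag1, a member of that list that was higher in type B than in type A, gave 139, 99.7 and 213 of the type B sums. The 8 markers shared by both types summed to 6318, 5989 and 5732 against 5812, 6328 and 6075. The 8 principal cell markers summed to 321, 179 and 136 in type B nuclei against 2769, 2974 and 6994 in principal cells, with Avpr2 at 0 in type B of each. The ascending limb list was at 1926, 1346 and 2615 in type B and 3177, 1908 and 2251 in type A, and the distal convoluted tubule list at 1328, 2284 and 1499 against 1676, 2446 and 1942. Endothelial markers summed to 190, 258 and 170 in type B and to 79.8, 237 and 143 in type A. In type B nuclei the stromal list reached 179, the macrophage list 24.9, the descending limb list 21.9 and the red blood cell list 4.15. The part of these levels in the results was not tested.

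**Figure D4:**
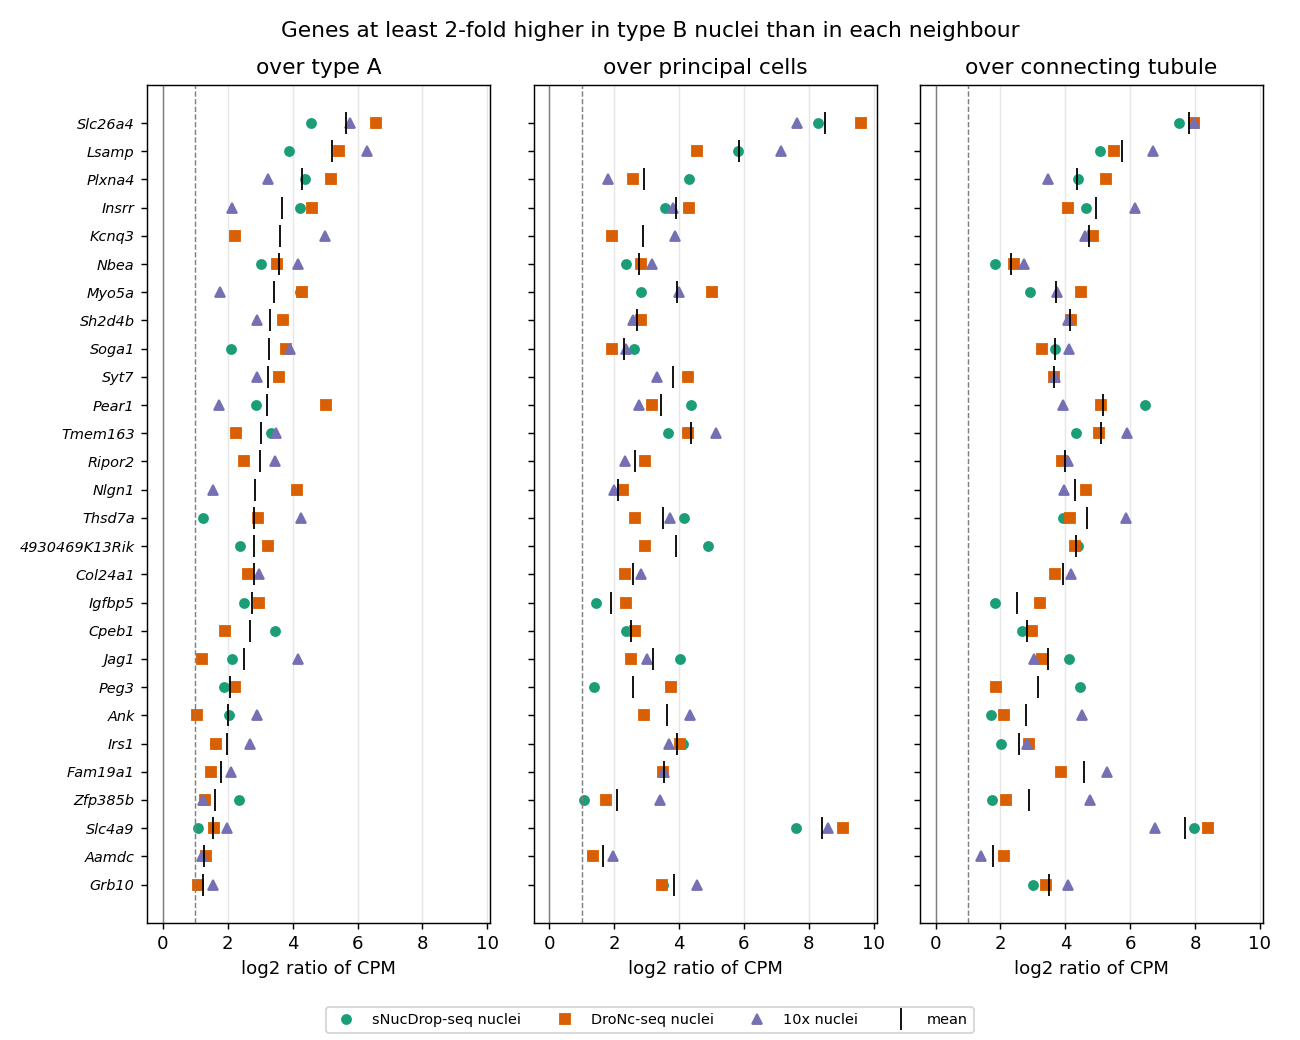
Log2 ratio of CPM in type B nuclei over type A, principal cell and connecting tubule nuclei for the 28 genes at least 2-fold higher in each comparison, with 1 symbol per nucleus library in which the gene was measured, a black bar for their mean and a dashed line at 2-fold. Slc26a4 leads over type A, and Slc4a9 stands near the bottom there but close to Slc26a4 over the other neighbours.

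Set against all 3 neighbours, 28 of 2553 genes measured in every comparison were higher in type B each time (1.1%), and 0 were lower each time (0%). The comparisons share the type B sums, so a gene high in type B alone passes the count minimum of all 3 through type B. A gene lower each time has to pass through each of the 3 neighbours. The counts of higher and lower genes are therefore not comparable. The 28 were Slc26a4, Slc4a9, Insrr, Lsamp, Nbea, Plxna4, Tmem163, Soga1, Myo5a, Pear1, Jag1, Grb10, Irs1, Ripor2, Thsd7a, Col24a1, Kcnq3, Syt7, Fam19a1, Igfbp5, Cpeb1, Nlgn1, Zfp385b, 4930469K13Rik, Peg3, Aamdc, Sh2d4b and Ank. Of these, Slc26a4, Lsamp, Nbea, Tmem163 and Irs1 kept the difference under every alternative processing tried. At a count minimum of 50, 19 of the 28 had too few UMIs to be measured in every comparison. Insrr, Plxna4, Soga1, Myo5a and Pear1 dropped out in that setting alone. Only 15 of the 28 were measured in all 3 nucleus libraries in every comparison.

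The 28, which were 1.1% of the genes measured in every comparison, included 3 members of the list of insulin receptor genes. Of that list, 7 of 10 genes in the table were measured. Insrr was among the 3 markers used to check the label, so its call is no result about the list. Insrr, the receptor that senses alkali outside the cell, was at 299, 174 and 366 CPM in type B nuclei, from 41, 42 and 43 UMIs, and at 16.0, 7.17 and 83.4 in type A. Type B was above type A in each library, with log2 ratios and exact 95% intervals of 4.23 (1.67 to 9.57), 4.60 (2.05 to 9.94) and 2.13 (0.97 to 3.53). The mean of 3.66 was 4.42 without 10x and 2.64 without the highest barcode of each label. Type A held 1 Insrr UMI in sNucDrop-seq and 1 in DroNc-seq. Leaving out their barcodes put those sums at the floor of 3 UMIs, which by itself lowers the ratio. The value of 2.64 thus does not measure the weight of single type B barcodes. Irs1, the docking protein that insulin-type receptors phosphorylate, was at 292, 428 and 911 against 95.8, 136 and 143 in type A, 16.8, 26.2 and 70.1 in principal cells and 71.6, 58.2 and 130 in connecting tubule. Its lowest type B value lay above every value of the neighbours, and its log2 ratio over type A was 1.98 ± 0.60 (SD, n = 3). Grb10, an adaptor that binds and dampens these receptors, was at 576, 581 and 622 against 271, 273 and 214 in type A and at or below 71.6 in the other neighbours (log2 over type A 1.24 ± 0.26). Grb10 was no longer 2-fold higher in every library without the barcodes of more than 3 times the median UMIs, where its mean log2 ratio was 1.06. The median log2 ratio of the 7 measured members over type A was -0.29, and the receptors Insr and Igf1r had -0.39 and -0.29.

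Jag1, a ligand of the Notch pathway by which intercalated and principal cells are set apart, was at 139, 99.7 and 213 CPM in type B, from 19, 24 and 25 UMIs. It was at 31.9, 43.0 and 11.9 in type A, 8.42, 17.4 and 26.3 in principal cells and 7.96, 0 and 26.0 in connecting tubule. Jag1 was listed among the type A markers when the lists were drawn up, and the data go against that placement. Its mean log2 ratio over type A was 2.5, and it was 1.66 without 10x and 3.14 without DroNc-seq. With every barcode given equal weight Jag1 was no longer 2-fold higher than type A in each library. Of the 14 Notch genes of the list, 4 were measured against type A and Jag1 was the only one different, where 1.77% of all measured genes were higher.

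No proton pump gene was called different between the intercalated types, where 1.77% of all measured genes were higher and 1.07% lower, and a count of 0 in lists of this size does not set them apart from other genes. Of 11 genes for the V1 part, which hydrolyses ATP, 9 were measured against type A, with 0 higher and 0 lower and a median log2 ratio of -0.01. Of 12 genes for the V0 part, which carries protons through the membrane, and its accessory proteins, 5 were measured, again with 0 higher and 0 lower and a median of 0.14. Atp6v0d2 was at 1313, 1337 and 945 CPM in type B and at 1197, 1499 and 929 in type A nuclei (log2 -0.002 ± 0.15, SD, n = 3). Atp6v1c2 was higher in type B in each nucleus library, at 1036, 1001 and 1065 against 447, 717 and 548, short of 2-fold in DroNc-seq and 10x (log2 0.88 ± 0.37). In Drop-seq, Atp6v0d2 at 345 against 752 CPM and Atp6v1a at 1114 against 2226 were lower in type B than in type A, with exact intervals of the log2 ratio clear of 0. Against principal cells 4 of the 9 V1 genes (Atp6v1b1, Atp6v1c2, Atp6v1g3 and Atp6v1h) and 1 of the 5 V0 genes (Atp6v0d2) were higher and none lower, where 4.3% of all measured genes were higher. The median log2 ratio of the measured V1 genes over principal cells was 1.29, against -0.02 for all genes measured there. Against connecting tubule the same number of V1 genes were higher, with Atp6v1a in place of Atp6v1h, and Atp6v0d2 again, where 3.6% of all measured genes were higher.

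Not every pump gene set intercalated cells apart from their neighbours. Atp6v0a4, the V0 subunit of kidney and inner ear, was at 1357, 1508 and 1184 CPM in type B, at 741, 968 and 613 in principal cells and at 879, 1233 and 1080 in connecting tubule, and did not reach 2-fold over either in every library. Atp6v0d2, by contrast, was at 8.42, 0 and 8.76 in principal cells. Atp6v1g3 was at 569, 694 and 545 in type B against 335, 588 and 286 in type A nuclei. In Drop-seq it was at 2786 against 3412, from 105 and 118 UMIs, too close to give an order.

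**Figure D5:**
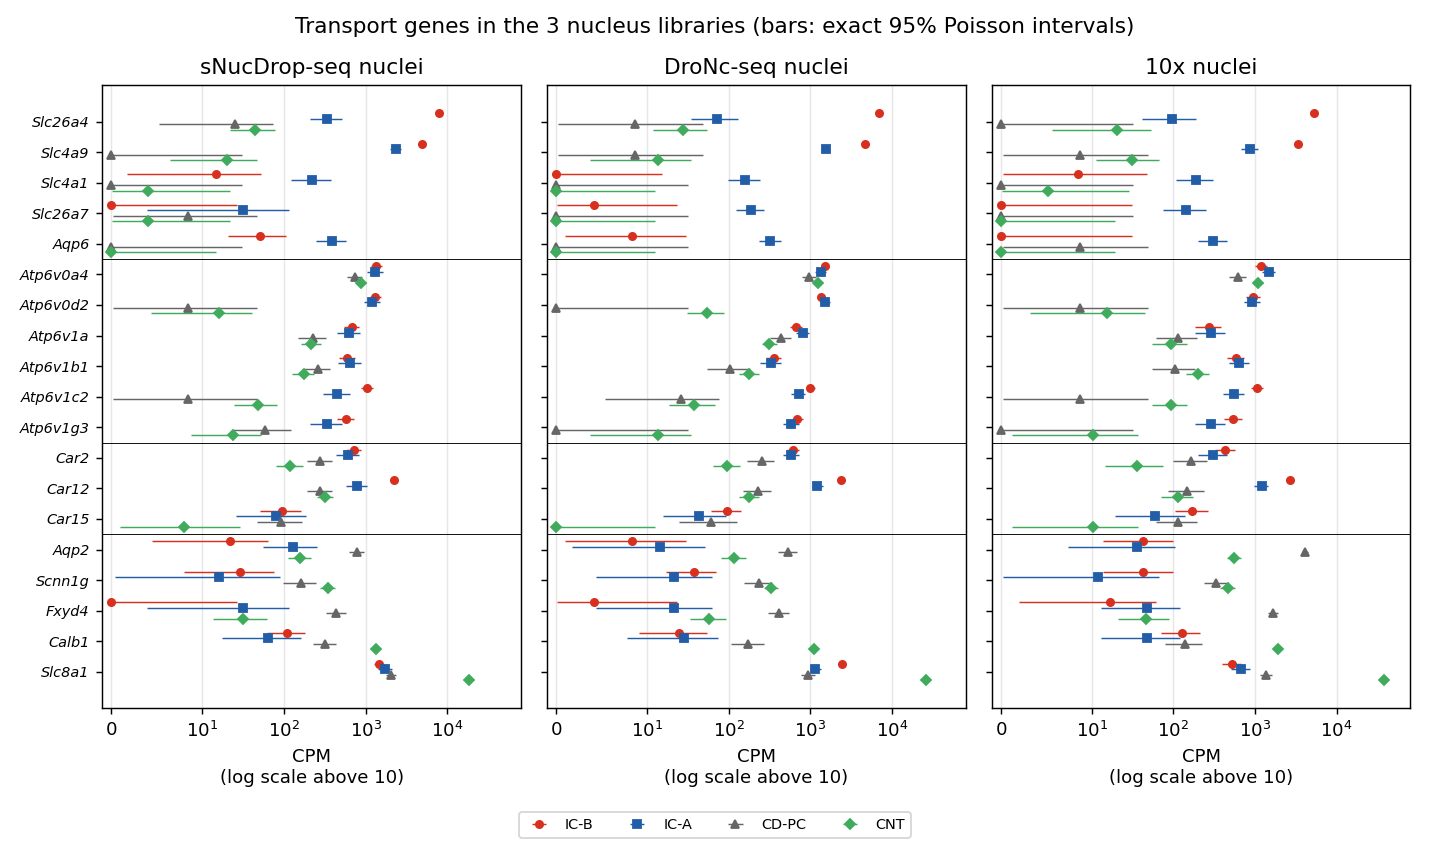
Levels of transport genes (CPM, log scale above 10) in type B, type A, principal cell and connecting tubule sums of the 3 nucleus libraries, with exact 95% Poisson intervals. The upper block shows the exchangers and Aqp6 that separate the intercalated types, the second block the pump subunits, of which Atp6v1c2 is higher in IC-B than in IC-A in each library, the third the carbonic anhydrases and the lowest the genes of the neighbours.

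Among carbonic anhydrases, 3 of 13 genes were measured, a small number for a list. Car15 was called higher than in type A, where 1.77% of all measured genes were higher. Car2 and Car12 were called higher than in principal cells (4.3% of all measured genes), and all 3 than in connecting tubule (3.6%). Car2, the cytosolic enzyme, was at 715, 619 and 434 CPM in type B and at 607, 581 and 310 in type A nuclei (log2 0.27 ± 0.20, SD, n = 3), and was higher than in principal cells and connecting tubule. Drop-seq had Car2 in the reverse order, 1751 against 3499 CPM, a log2 ratio of -0.998 (exact 95% interval -1.45 to -0.55). Car12, a membrane-bound enzyme, was at 2218, 2384 and 2666 in type B against 782, 1220 and 1203 in type A, higher in each nucleus library but below 2-fold in DroNc-seq (log2 1.21 ± 0.27). In Drop-seq the order of Car12 was the reverse, 159 against 463, from 6 and 16 UMIs. Car15, an enzyme anchored to the outer membrane face, was the only one of the 3 at least 2-fold higher than in type A, and it rested on 23 and 20 UMIs in 2 nucleus libraries against 6 and 5.

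Against principal cells, 134 of 3113 measured genes were higher in type B (4.3%) and 130 lower (4.18%). The leading higher genes after the exchangers were Atp6v0d2, Lsamp, Atp6v1c2, Pde4b, a cAMP phosphodiesterase, Hepacam2, Syn2, a synaptic vesicle protein, Rcan2, a calcineurin regulator, and Car12. Pde4b was at 1532, 2438 and 3177 CPM in type B and 58.9, 87.2 and 52.6 in principal cells, and type A nuclei stood at 910, 1607 and 1918. Hepacam2 had 48, 92 and 43 UMIs in type B and 0 in principal cells of all 4 libraries. The leading lower genes were Fxyd4, a regulator of the sodium pump, Mgat4c, the water channel Aqp2, Tmem45b, Col26a1, Hdac7, Hsd11b2, the enzyme that keeps cortisol-like hormones from the mineralocorticoid receptor, Kcnh5, Kcnc2 and Frmpd4. Aqp2 was at 21.9, 8.31 and 42.6 in type B against 774, 532 and 4084 in principal cells (log2 -5.91 ± 0.72, SD, n = 3), and no Aqp2 UMI was found in the 16 Drop-seq type B cells.

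Against connecting tubule, 151 of 4197 measured genes were higher (3.6%) and 123 lower (2.93%). The balance turned with the scaling, to 128 higher and 141 lower with TMM and to 123 and 148 with a median of ratios. The leading higher genes were Slc26a4, Slc4a9, Lsamp, Pde4b, Atp6v0d2, Hepacam2, Insrr, Atp6v1g3, Syn2 and Pear1. Hepacam2, one of those held by both intercalated types, was at 350, 382 and 366 CPM in type B, at 271, 251 and 226 in type A and at 0, 10.3 and 0 in connecting tubule. The leading lower genes were Slc8a1 (the sodium-calcium exchanger), Calb1 (a calcium buffer), Egfem1, Slc2a9, Scnn1g (a subunit of the epithelial sodium channel), Phactr1, Trpv5 (the calcium entry channel), Sgms2, Tmem52b and Slc7a15. Slc8a1 was at 1474, 2413 and 520 CPM in type B and at 18614, 26339 and 37888 in connecting tubule. Calb1 was at 109, 24.9 and 128 against 1345, 1120 and 1926 (log2 -4.34 ± 1.01, SD, n = 3).

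Of the receptors of acid-base and hormone signals, 7 of 22 in the table were measured against type A and only Casr, the calcium-sensing receptor, was different, where 1.77% of all measured genes were higher. It was at 182, 378 and 230 CPM in type B and 63.9, 115 and 95.3 in type A nuclei (log2 1.5 ± 0.22, SD, n = 3). Against principal cells Casr was joined by Oxgr1, the receptor for alpha-ketoglutarate, Ptger3, a prostaglandin receptor, and Sctr, the secretin receptor, while Hsd11b2 was lower, where 4.3% of all measured genes were higher and 4.18% lower. Oxgr1 was at 168, 278 and 179 in type B and at 239, 495 and 226 in type A, the lower of the pair in each library without reaching 2-fold. Sctr was at 190, 116 and 273 in type B, 176, 86.1 and 203 in type A and listed with 0 UMIs in principal cells.

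Of 19 collecting duct transcription factors in the table, 12 were measured against type A and 0 were higher or lower, where 1.77% and 1.07% of all measured genes were, so that this count says little of the list. Against principal cells 12 were also measured, where 4.3% of all measured genes were higher and 4.18% lower. Esrrb was higher there, with log2 ratios of 1.08 and 1.42 in the 2 libraries that measured it. Gata3, Sim1 and Pax2 were lower there, with mean log2 ratios of -1.82, -1.48 and -1.94. Against connecting tubule 14 were measured, with 0 higher and Gata3, Tfap2b and Emx1 lower, where 3.6% and 2.93% of all measured genes were. Foxi1 was below the count minimum, with 13, 19 and 6 UMIs in type B, 2, 7 and 3 in type A and 0 in principal cells of every library. Hmx2, a homeobox factor that was named after its values were seen, had 13, 36 and 16 UMIs in type B nuclei, 1, 1 and 0 in type A and 0 in principal cells and connecting tubule. Hmx2 was found in 5.33%, 7.23% and 9.09% of type B nuclei thinned to 500 UMIs, against 0.0549%, 0.125% and 0.154% of proximal tubule nuclei. A factor with 0 UMIs in a label was not detectable at this depth.

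The other lists were too short, at these shares of all genes, for their counts against type A to tell them from other genes. Of the ammonia and proton-potassium transport, chloride and potassium channel, WNK kinase, sodium pump, and junction lists, 3, 6, 7, 4 and 6 genes were measured against type A, and 0 were higher or lower in each. Against principal cells 3, 7, 7, 5 and 7 were measured, where 4.3% of all measured genes were higher and 4.18% lower. Only Kcnj1, the secretory potassium channel (mean log2 -2.89), and Fxyd4 were lower there, and none were higher. Against connecting tubule 4, 9, 8, 4 and 7 were measured, where 3.6% of all measured genes were higher and 2.93% lower. The potassium channels Kcnj1 and Kcnj10 (mean log2 -3.10 and -3.17) were lower there. So were the kinase Wnk1 (-2.03) and Klhl3, which marks WNK kinases for destruction (-1.89). Bsnd, the chloride channel subunit (mean log2 1.16), and Epcam, an adhesion protein (1.73), were higher there. Of the 18 genes of the dissociation response, such as Fos and Jun, 0 were measured against type A, and they summed to 531 CPM in Drop-seq type B cells and to 212, 212 and 111 in type B nuclei.

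The platforms are set side by side without comparison. Mitochondrially encoded genes made up 30.7% of the type B UMIs in Drop-seq and 0.241%, 0.118% and 0.0273% in the nucleus libraries. Malat1, a nuclear RNA, made up 1.27% in Drop-seq and 12.7%, 15% and 9.07% in nuclei. With Malat1, mitochondrially encoded and ribosomal protein genes left out of the totals, Slc26a4 stood at 2743 CPM in Drop-seq type B cells and at 9091, 8094 and 5759 in nuclei.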

How the data were processed

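UMI counts per gene and barcode came from 1 table of healthy mouse kidney deposited by the authors (19713 genes, 11395 barcodes), and labels came from their deposited annotation. The authors made these raw counts with zUMIs, per the deposited readme, and the submitters' processing notes list STAR 2.5.3a and mm10. How introns, gene models, filters and clusters were handled is not stated in those sources. The values were whole numbers, and 0 columns belonged to no sample.

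Counts of the type B barcodes were summed per library, scaled to 1000000 UMIs of the sum (CPM) and compared with type A (IC-A), principal cell (CD-PC) and connecting tubule (CNT) sums within the library. With 1 library per platform there was no test. Intervals are exact Poisson for levels, exact conditional binomial for ratios and exact Clopper-Pearson for shares, at 95%, and cover counting error only. The SD is over the 3 nucleus libraries and so includes differences between platforms and animals. Doublets were not called, and all barcodes were kept except in an alternative without those above 3 times the median UMIs. The members, gene lists and comparisons were chosen with earlier results of these data known, so nothing in the lists is independent support. Named genes were the 3 markers, the 10 leading genes in each direction of each comparison (by the interval bound nearest 0, measured in all 3 nucleus libraries, leaving out mitochondrial, ribosomal protein and unnamed genes), and from each list the 4 with the highest level plus those at least 4-fold apart from type A or principal cells. Alternatives covered scaling (TMM from edgeR 4.0.16 in R 4.3.3, and a median of ratios), totals, count minimum, equal weight of barcodes, depth and each library left out. Scripts used Python 3.11.15 with numpy 2.4.6, scipy 1.17.1 and pandas 2.3.3, and were tested on simulated counts. The summed result of 1 marker list is not reported here.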

Additional observations from a re-analysis of the deposited data

Results flagged for a closer look

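Car12 lay on opposite sides in cells and nuclei. Its log2 ratio of type B over type A was -1.54 in Drop-seq cells, from 6 and 16 UMIs, whereas nuclei gave 1.5 (sNucDrop-seq), 0.97 (DroNc-seq) and 1.15 (10x), with every exact interval clear of 0. The difference between cells and nuclei was not tested, since there is 1 Drop-seq library, and 5 of its 16 type B barcodes had no UMI of 4 intercalated genes.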

How the results depend on the processing

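Every ratio was taken within 1 library, which pairs the labels by library. Beyond that no paired analysis was possible because no replicate numbers tie the 4 libraries to each other. The alternatives on single barcodes and libraries (each gene without its highest barcode, genes measured in all 3 nucleus libraries, Drop-seq added to the calls) were chosen after seeing the data. Raising or lowering the count minimum changed the number of genes measured and so the counts. At a minimum of 10, 85 genes were higher and 81 lower than in type A, 217 and 231 than in principal cells, and 245 were higher than in connecting tubule. At 50, 14 and 13, 55 and 51, and 66 and 65 were past 2-fold, and 9 were higher than all 3 neighbours. Measured in all 3 nucleus libraries, the counts were 20 and 16 for type A, 87 and 84 for principal cells, 94 higher for connecting tubule and 15 for all 3 neighbours. With equal weight per barcode, 44 genes were lower than in type A, and these included 23 of the 29 of the main setting. TMM moved ratios over type A by 0.14, and median of ratios those over connecting tubule by -0.13 (log2), and neither took a gene out of the 28. With TMM 60 genes were higher and 26 lower than in type A. Leaving out each nucleus library gave 19 to 27 genes higher than all 3 neighbours, 35 to 46 higher than type A, 113 to 130 higher than principal cells and 124 to 144 higher than connecting tubule. The members changed more than these totals. Without DroNc-seq, 20 of the 48 genes higher than type A were kept and 28 were no longer measured. Of the 28 genes higher than all 3 neighbours, 15 were then kept and 13 were no longer measured. Outside the proximal tubule the type B share was 3.14%, 6.30%, 7.13% and 5.80%. The share with an Slc26a4 UMI was 25%, 86.7% and 89.6% in Drop-seq, DroNc-seq and 10x at 500 UMIs, and 94.6% in 10x at 1000. Against labels of equal weight the mean log2 of Slc4a9 was 4.87. Without Malat1, mitochondrial and ribosomal genes Slc26a4 was at 2743, 9091, 8094 and 5759 CPM. Depth limits the transcription factors, most of which gave few UMIs.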

Other observations

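Some barcodes under other labels carried many Slc26a4 UMIs. The highest was an endothelial (EC) DroNc-seq barcode with 59, which held 59 of the 64 Slc26a4 UMIs of its label. Type A nuclei with 19 UMIs in sNucDrop-seq and 9 in DroNc-seq, and proximal tubule barcodes with up to 14 in sNucDrop-seq, were the next in those libraries. In 10x the highest outside type B were a descending limb barcode with 11 and an ascending limb barcode with 10.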
